A study of Homo sapiens with 6 samples.

Results

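Collagen-modifying and crosslinking enzymes were examined as a set of 10 genes, taken by symbol from the 15243 genes of a single comparison table: the lysyl hydroxylases PLOD1, PLOD2 and PLOD3, the lysyl oxidases LOX, LOXL1, LOXL2, LOXL3 and LOXL4, the peroxidase PXDN and the collagen chaperone SERPINH1. All 10 were found by symbol, with no filter on their values. The set and the gene lists below were, however, chosen with earlier results of these data known. Ribosome footprints were sequenced (Ribo-seq) in NCI-H1299, an established human non-small cell lung carcinoma line. The groups were 3 samples with a short hairpin RNA against ALDH18A1 (shALDH18A1) and 3 controls (shControl, called puro in the design text). ALDH18A1 encodes P5CS, which makes the precursor of proline, a major residue of collagen. The hairpin's sequence and whether the 3 samples of a group are separate cultures are not given, so the errors may measure technical spread alone.

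Collagen chains are modified before and after they leave the cell. In the endoplasmic reticulum, lysyl hydroxylases hydroxylate lysines and the chaperone HSP47, the product of SERPINH1, binds the folding triple helix. Outside the cell, copper-dependent lysyl oxidases oxidise lysine and hydroxylysine side chains, which then form the crosslinks of fibrils and elastin, and peroxidasin, the product of PXDN, forms sulfilimine bonds between type IV collagen molecules of basement membranes.

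The table gives each gene 1 mean normalized count, a log fold change taken as log2 from its column layout, a standard error (SE) and an adjusted p. Values of single samples were not analysed here, so no level per group can be given. Which group stands on top of the ratio is not given, nor whether the ratio is one of footprints or of footprints over RNA. Higher and lower below are therefore the sign in the table, not an effect of shALDH18A1 against shControl. The targeted gene gives no guide, since ALDH18A1 stood at −0.19 ± 0.12 log2 units in the authors' deposited table (adjusted p = 0.173). Mean counts are not per length and are used as the depth behind a value, not to compare levels between genes. Among the markers checked, the mean counts in the authors' deposited table were 6396 for KRT8, 6869 for KRT18 and 22046 for VIM. The lung markers were at 3.24 (NKX2-1) or not listed (NAPSA, SFTPB, SFTPC). Fibroblast markers had mean counts of 26.9 for COL1A1, 3.25 for COL1A2 and 5.18 for DCN in the authors' deposited table. LUM was not listed, nor was the leukocyte marker PTPRC. EPCAM was at 11.4, CDH1 at 1.95, the endothelial marker PECAM1 at 1.56, CDH2 at 1815 and ZEB1 at 247 in the same unit in the authors' deposited table.

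All 10 genes had a positive log2 fold change in the authors' deposited table, and 8 were called higher and 0 lower at an adjusted p under 0.05. Of all 15243 genes, 58.4% were called, 28.9% higher and 29.4% lower, and 50.9% had a positive sign. The median of the 10 was 1.01 on the log2 scale, against 0.02 over all genes in the authors' deposited table. PXDN and LOXL2 had the highest values, at 13.2-fold and 10.3-fold in the authors' deposited table. LOXL3 and LOXL4 did not pass. A log2 fold change above 1 together with the call was met by 6 of the 10 genes, against 14.7% of all genes. The 2 genes just inside that limit in the authors' deposited table were PLOD3 (1.01) and SERPINH1 (1.01), and the nearest outside it was LOXL4 (0.81).

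**Figure D1:**
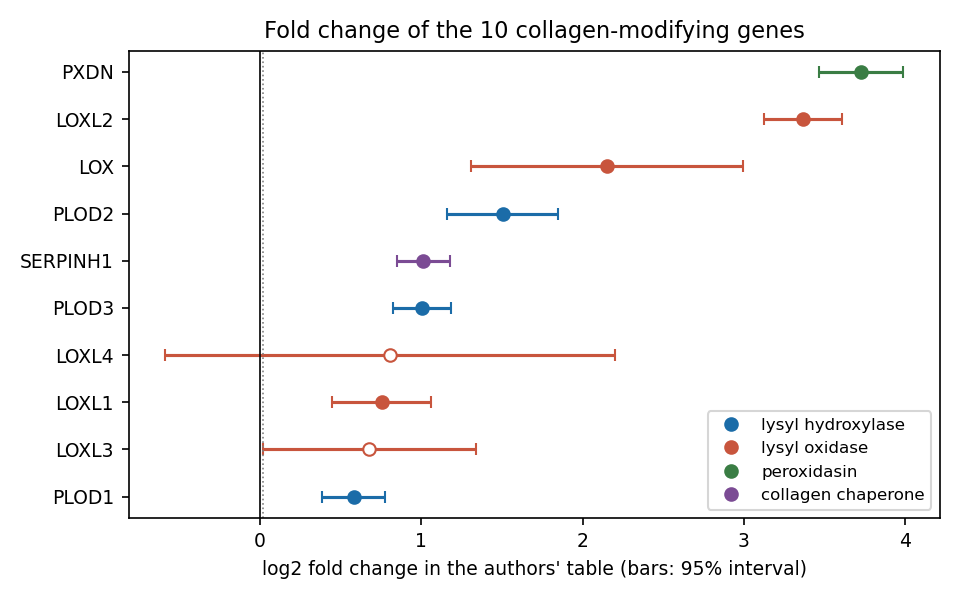
Log2 fold change of each of the 10 genes in the authors' deposited table (x axis) with its 95% interval (bars), coloured by family; filled points passed an adjusted p under 0.05, the solid line marks 0 and the dotted line the median of all genes (0.02). PXDN (3.73) and LOXL2 (3.36) lie right of all others, and the interval of LOXL4 spans 0.

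The promoters of 3 genes are shown because they carry matches to motifs of pathways these genes are known for: PLOD2 and LOX are targets of the hypoxia-inducible factor HIF-1, and SERPINH1 is a heat shock gene. Each run is the 250 bases before the annotated start that lies farthest upstream, from RefSeq in GRCh38.p14, written 5′ to 3′ on the gene's strand. Capitals mark ACGTG, the core bound by HIF-1, or its reverse complement CACGT in PLOD2 and LOX, and, in SERPINH1, a heat shock element made of GAA, TTC and GAA parted by 2 bases each, on either strand.
PLOD2 (chr3:146161185-146161434, minus strand): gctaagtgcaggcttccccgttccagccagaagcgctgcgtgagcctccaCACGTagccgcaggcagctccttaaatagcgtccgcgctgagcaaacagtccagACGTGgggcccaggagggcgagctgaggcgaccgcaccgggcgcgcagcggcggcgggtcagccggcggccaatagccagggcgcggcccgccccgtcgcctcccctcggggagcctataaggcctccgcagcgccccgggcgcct
LOX (chr5:122078260-122078509, minus strand): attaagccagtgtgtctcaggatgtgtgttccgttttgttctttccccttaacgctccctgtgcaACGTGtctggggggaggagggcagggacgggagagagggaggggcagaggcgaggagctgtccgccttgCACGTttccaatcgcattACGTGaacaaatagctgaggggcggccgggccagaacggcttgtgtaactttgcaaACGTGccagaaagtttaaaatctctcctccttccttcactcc
SERPINH1 (chr11:75562003-75562252, plus strand): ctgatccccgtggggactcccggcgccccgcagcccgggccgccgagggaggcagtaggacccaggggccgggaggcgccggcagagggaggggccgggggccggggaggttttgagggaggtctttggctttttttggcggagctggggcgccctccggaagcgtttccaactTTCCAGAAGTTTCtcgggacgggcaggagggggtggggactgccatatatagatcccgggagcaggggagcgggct

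In the runs shown, the ACGTG core occurred 2 times before PLOD2 and 4 times before LOX. The other LOX windows, which lie nearer the gene, held the core 1 time each. Counted in the window farthest upstream of each gene, 3 of the 9 members with a promoter entry held it (the other being PXDN, with 1, in a window that lies within its annotated span), as did 18.6% of 27326 genes. A second SERPINH1 window also held it, which makes 4 of the 9 over all their windows. Some of the 9 have several windows, which raises such a count, and no like share of genes was computed. SERPINH1 was the only 1 of the 9 with the heat shock element, which 0.446% of genes held in the window farthest upstream. The GC box GGGCGG, on either strand, occurred in the windows farthest upstream of 6 of the 9 and of 42.2% of genes. It was in 8 of the 9 over all their windows, again without a like share of genes. The TATAAA box was in no window of the 9, and 11.2% of genes had it in the window farthest upstream. The AP-1 site TGACTCA was likewise in none of theirs and in that of 4.15% of genes. So was the endoplasmic reticulum stress element, CCAAT followed after 9 bases by CCACG, which 0.0768% of genes held there. LOXL2 has no entry among the promoters used. These matches are letters in a window and were not tested for binding, and a ratio of footprints does not read promoter activity alone.

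The lysyl hydroxylases were all called higher, in the order PLOD2, PLOD3, PLOD1. PLOD2 hydroxylates lysines of the collagen telopeptides, the step that leads to pyridinoline crosslinks, and is mutated in Bruck syndrome. Its log2 fold change in the authors' deposited table was 1.50 ± 0.18 (adjusted p = 9.59e-17), a 2.84-fold difference with a 95% interval of 2.23 to 3.60. PLOD3, which also carries glycosyltransferase activity and is needed for type IV collagen, was at 1.01 ± 0.09 log2 units in the authors' deposited table (adjusted p = 8.94e-27). PLOD1 acts on lysines of the triple helix and is mutated in kyphoscoliotic Ehlers-Danlos syndrome, and it had the smallest value of the 10 genes, 0.58 ± 0.10 log2 units in the authors' deposited table (adjusted p = 1.86e-08). That is a 1.50-fold difference with an interval of 1.31 to 1.71 in the authors' deposited table. Each of the 3 rested on a mean count above the median gene's 150.2, with 648 for PLOD2, 3310 for PLOD3 and 1447 for PLOD1 in the authors' deposited table.

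PLOD2 was the least precise of the 3 for its depth. Its SE was 1.60 times the median SE of its bin, 1 of 10 equal bins of genes by mean count, while those of PLOD3 and PLOD1 were 0.914 and 0.986 times theirs in the authors' deposited table. The differences between the 3 enzymes were computed from the table with the SEs combined as though independent, since their covariance is unknown. PLOD2 exceeded PLOD1 by 0.92 on the log2 scale (95% interval 0.53 to 1.32), and PLOD3 exceeded PLOD1 by 0.43 (0.16 to 0.69). PLOD2 exceeded PLOD3 by 0.50 (0.11 to 0.89), but this interval alone of the 3 took in 0 once widened for the 13 family pairs compared (−0.08 to 1.07).

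The lysyl oxidases spanned 0.68 to 3.36 on the log2 scale, with LOXL2 highest, LOX next and LOXL1, LOXL3 and LOXL4 between 0.68 and 0.81 with overlapping intervals. LOXL2 belongs, with LOXL3 and LOXL4, to the branch with scavenger receptor cysteine-rich domains, and it acts on type IV collagen. Its log2 fold change in the authors' deposited table was 3.36 ± 0.12 (adjusted p = 4.98e-162), or 10.3-fold with an interval of 8.71 to 12.2. Counted from the most positive value, it ranked 130 among all 15243 genes and 8 among the 1525 genes of the most abundant bin in the authors' deposited table. Since the direction of the ratio is not given, the same values turned round put LOXL2 at 0.0971-fold, with these ranks counted from the lowest. LOX, the founding member, whose propeptide is cleaved by BMP1, was at 2.15 ± 0.43 log2 units in the authors' deposited table (adjusted p = 2.11e-06). LOX had a mean count of only 10.6 in the authors' deposited table, and its fold of 4.44 carried a wide interval, 2.47 to 7.96. LOXL1, which is needed for elastic fibre upkeep, was called at 0.76 ± 0.16 log2 units in the authors' deposited table (adjusted p = 4.50e-06, mean count 105).

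LOXL3 and LOXL4 were not called at the depth they had. LOXL3 was at 0.68 ± 0.34 log2 units in the authors' deposited table (mean count 31.5, adjusted p = 0.0706). Unadjusted, its p was 0.0429 in the authors' deposited table, with a fold interval of 1.02 to 2.53. With the median of its abundance bin subtracted, LOXL3 was at 0.37 and LOXL4 at 0.49 on the log2 scale, and neither passed. LOXL4, the shallowest of the 10 genes with a mean count of 6.04 in the authors' deposited table, was at 0.81 ± 0.71 on the log2 scale (adjusted p = 0.337). Its interval, 0.667 to 4.60 as a fold in the authors' deposited table, takes in both no change and a change as large as that of LOX. A failure to pass here therefore does not show that these genes were unchanged.

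Of the 10 pairs of lysyl oxidases, 6 differed with a 95% interval that left out 0. LOXL2 exceeded LOXL1 by 2.61 on the log2 scale (2.22 to 3.00), LOXL3 by 2.68 (1.98 to 3.39) and LOXL4 by 2.56 (1.14 to 3.97). LOX exceeded LOXL1 by 1.39 (0.49 to 2.29). These 4 also left out 0 when widened for the 13 pairs, but with bin medians subtracted the widened interval of LOX over LOXL1 (1.11, −0.22 to 2.43) took in 0. The gaps of LOXL2 over LOX, 1.21 (0.34 to 2.09), and of LOX over LOXL3, 1.47 (0.40 to 2.54), did not survive the widening, although with bin medians subtracted that of LOXL2 over LOX did (1.64, 0.34 to 2.93). The gap of LOX over LOXL4 was 1.34 (−0.29 to 2.97). Among LOXL1, LOXL3 and LOXL4 the gaps were 0.05 to 0.13, with intervals as wide as −1.41 to 1.67 for LOXL4 against LOXL3.

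**Figure D2:**
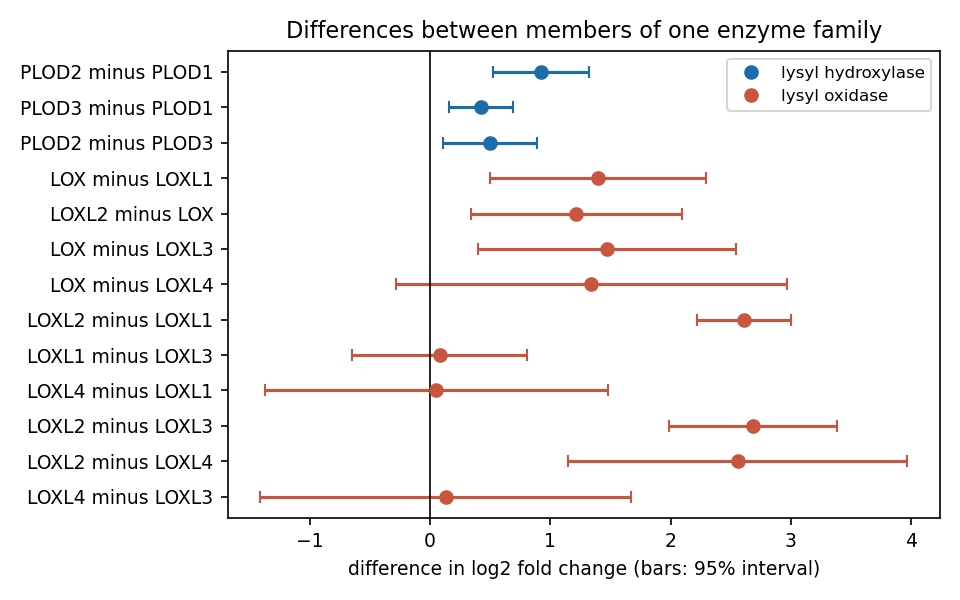
Difference in log2 fold change between 2 enzymes of one family (x axis), with bars for the 95% interval from the combined SEs; 3 lysyl hydroxylase and 10 lysyl oxidase pairs run down the page. The 3 comparisons of LOXL2 with LOXL1, LOXL3 and LOXL4 lie beyond 2.5, and the 4 intervals that take in 0 all involve LOXL3 or LOXL4.

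PXDN had the largest value of the 10 genes. Its log2 fold change in the authors' deposited table was 3.73 ± 0.13 (adjusted p = 1.94e-172), or 13.2-fold with an interval of 11.1 to 15.8, at a mean count of 517. Counted from the most positive value, it ranked 73 of all 15243 genes and 5 of the 1524 genes in its bin of abundance in the authors' deposited table. With the ratio turned round, PXDN is at 0.0756-fold and these ranks count from the lowest. SERPINH1 was at 1.01 ± 0.08 log2 units in the authors' deposited table (adjusted p = 1.28e-31), a 2.02-fold difference with an interval of 1.80 to 2.27 at a mean count of 1933. Its SE of 0.08 was the smallest among the 10 genes in the authors' deposited table.

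**Figure D3:**
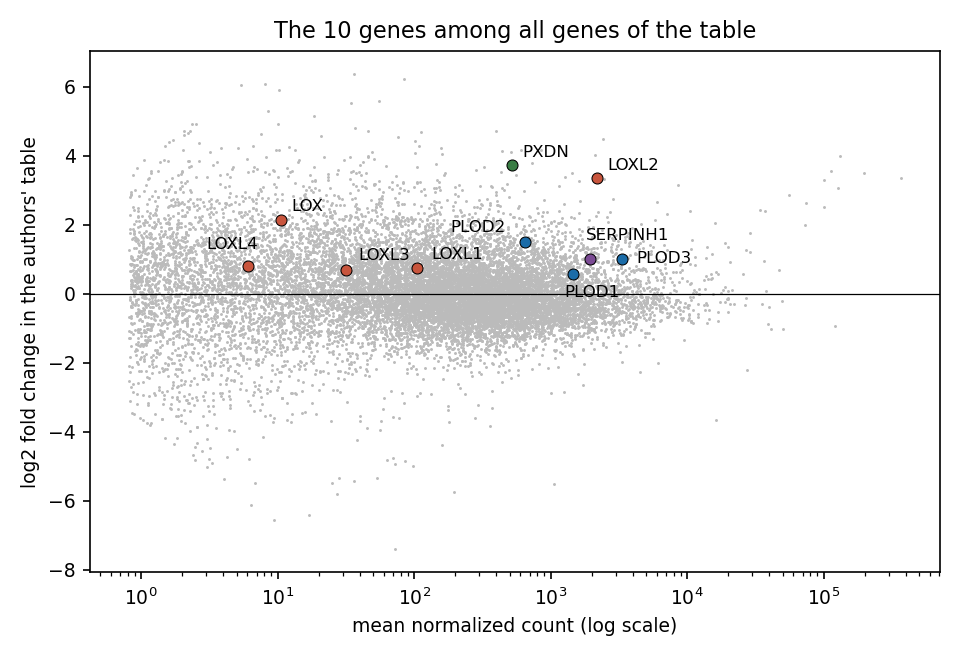
Log2 fold change (y axis) against mean normalized count on a log axis (x axis) for all 15243 genes in the authors' deposited table (grey), with the 10 genes coloured by family as in the plot of fold changes by gene. PXDN and LOXL2 lie at the upper edge of the cloud for their counts, and LOX, LOXL3 and LOXL4 at counts where the cloud is wide.

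Each of the 10 genes lay above the median of its bin of abundance. In the bins of abundance that hold the 10 genes, the median log2 fold change ran between −0.12 and 0.31, and 22.9% to 37.5% of the genes were called higher in the authors' deposited table. PLOD1 ranked 334, SERPINH1 184 and PLOD3 185 of 1525 genes in the most abundant bin, and PLOD2 ranked 60 of 1524 in its own. LOX ranked 125 and LOXL4 519 of 1524 genes in the bin they share, LOXL3 579 of 1524 and LOXL1 335 of 1525 in theirs.

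The genes lie on 9 chromosomes in GRCh38.p14, with 2 (PXDN and LOXL3) on chromosome 2. PXDN spans 1631887 to 1744901 there and LOXL2 spans 23296897 to 23404120 on chromosome 8. PLOD1 lies on chromosome 1 (11934717 to 11975537), PLOD2 on chromosome 3 (146069440 to 146161184) and PLOD3 on chromosome 7 (101205984 to 101217581). LOXL1 lies on chromosome 15 (73926462 to 73952136), LOXL4 on chromosome 10 (98247690 to 98268194) and SERPINH1 on chromosome 11 (75562253 to 75572783). The annotated span of LOX on chromosome 5 (122063195 to 122078259) lies wholly inside that of SRFBP1 on the opposite strand. SRFBP1 was lower in the authors' deposited table, at −1.48 ± 0.16 on the log2 scale and a mean count of 205, so its sign is opposite to that of LOX. LOXL3 on chromosome 2 (74532258 to 74555702) shares 28.1% of its span with DOK1 and 5.54% with HTRA2, both on the opposite strand. In the authors' deposited table, DOK1 was at 0.24 ± 0.18 (adjusted p = 0.275) and HTRA2 at 0.82 ± 0.16 on the log2 scale. Whether reads were counted by strand is not given, and the part of shared reads in the values of LOX and LOXL3 was not tested. LOXL1, LOXL2 and PXDN overlap only noncoding genes that the table does not list, and the other 5 overlap no annotated gene.

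Enzymes that act beside these in the endoplasmic reticulum were mostly higher too. The list of collagen prolyl hydroxylation, folding and glycosylation genes had 15 of 18 members called higher, 2 lower and 1 not called, with a median of 1.31 log2 units in the authors' deposited table. Against 28.9% of all genes, 83.3% of the list were called higher. FKBP9 (2.97 ± 0.09) and FKBP10 (2.03 ± 0.07), prolyl isomerases of the endoplasmic reticulum, P3H4 (2.42 ± 0.15), a partner of PLOD1 and P3H3 in the lysyl hydroxylation complex known from mice, and P4HB (1.31 ± 0.09), the shared subunit of the collagen prolyl 4-hydroxylases, had the list's smallest p-values in the authors' deposited table. Outside that rule, P3H3 itself was at 1.86 ± 0.20, and the galactosyltransferase genes that act on hydroxylysine were at 0.82 ± 0.08 (COLGALT1) and 1.86 ± 0.29 (COLGALT2) log2 units in the authors' deposited table. The catalytic prolyl 4-hydroxylase subunits differed in sign: P4HA1 (1.72 ± 0.15) and P4HA2 (0.72 ± 0.10) were higher and P4HA3 lower (−1.11 ± 0.26) in the authors' deposited table. P3H2, a prolyl 3-hydroxylase, was the other member called lower, at −0.37 ± 0.15 log2 units in the authors' deposited table (adjusted p = 0.0248).

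The fibrillar collagen chains were read thinly. All 10 measured fibrillar chains had mean counts below the median gene in the authors' deposited table, between 2.50 and 48.6. Of these, 1 was called higher, 3 lower and 6 were not called, with a median of −0.01 on the log2 scale. The shares over all genes were 28.9% higher and 29.4% lower. COL5A2 (−1.75 ± 0.28), COL24A1 (−2.68 ± 0.67) and COL11A2 (−1.29 ± 0.58) were lower and COL5A1 (2.70 ± 1.14) higher in the authors' deposited table. COL5A1 (mean count 3.51, adjusted p = 0.0330) and COL11A2 (mean count 4.50, adjusted p = 0.0460) passed only narrowly in the authors' deposited table. COL1A1, a chain of type I collagen, was not called at 0.22 ± 0.24 log2 units in the authors' deposited table. The mean counts of the 10 enzyme and chaperone genes ran from 6.04 to 3310 in the authors' deposited table.

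Basement membrane genes had 12 of 22 called higher, 6 lower and 4 not called (median 0.32 log2 units in the authors' deposited table). That is 54.5% called higher, against 28.9% of all genes, and 29.4% of all genes were called lower. The laminin genes LAMB1 (1.73 ± 0.08), LAMB2 (1.57 ± 0.11) and LAMB3 (0.63 ± 0.06) were higher in the authors' deposited table. The type IV collagen chains, the substrate of peroxidasin, were looked at with their values known. COL4A5 (−0.97 ± 0.17), COL4A6 (−0.92 ± 0.20) and COL4A1 (−1.85 ± 0.76) were lower and COL4A4 (1.21 ± 0.46) higher in the authors' deposited table. COL4A2 (−0.72 ± 0.94) and COL4A3 (1.25 ± 0.70) were not called in the authors' deposited table, and mean counts of the 6 chains ran from 1.76 (COL4A2) to 114 (COL4A5). Of the 6 chains, 3 were thus lower, 1 higher and 2 uncalled, where 29.4% of all genes were called lower and 28.9% higher. COL4A1 rested on a mean count of only 3.43 in the authors' deposited table. COL18A1, another basement membrane collagen chain, was lower at −0.45 ± 0.09 log2 units and had a mean count of 2039 in the authors' deposited table, and was also named after its value was seen.

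Elastic fibre genes and other partners of lysyl oxidases had 10 of 19 called higher, 3 lower and 6 not called (median 0.39 log2 units in the authors' deposited table). For this list and the next, the shares over all genes were 28.9% higher and 29.4% lower. LTBP4 (1.32 ± 0.09) and LTBP1 (1.33 ± 0.11), latent TGF-beta binding proteins, the fibulin gene FBLN1 (1.48 ± 0.12) and the fibronectin gene FN1 (1.20 ± 0.10) had the list's smallest p-values in the authors' deposited table. ELN, which encodes elastin, had a mean count of 1.17 and was not called (−0.56 ± 1.29) in the authors' deposited table, a gene chosen after its value was seen. Export and propeptide processing genes had 9 of 18 called higher, 2 lower and 7 not called, with a median of 0.38 log2 units in the authors' deposited table. The procollagen proteinase enhancers PCOLCE2 (1.46 ± 0.13) and PCOLCE (1.51 ± 0.23), the proprotein convertase FURIN (0.71 ± 0.09) and the procollagen cargo receptor MIA3 (0.80 ± 0.12) were higher in the authors' deposited table. Both members called lower were named after their values were seen: the coat gene SEC31A (−0.34 ± 0.07) and BMP1 (−0.26 ± 0.11), the protease that cleaves the propeptides of LOX and of fibrillar procollagens, in the authors' deposited table.

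Lists that share a cofactor, a domain, a regulator or a family with some of the 10 genes had medians of −0.01 to 0.20 on the log2 scale. Copper handling genes had 5 called higher, 5 lower and 3 not called of 13 (median 0.16 log2 units in the authors' deposited table). All genes split in a like way, with 28.9% called higher and 29.4% lower. The copper importer SLC31A1 (1.56 ± 0.19) and the metalloreductases STEAP3 (1.42 ± 0.10) and STEAP2 (1.46 ± 0.14) were higher and the copper chaperone ATOX1 (−0.89 ± 0.10) lower in the authors' deposited table. ATP7A, the pump that loads copper onto lysyl oxidases in the Golgi, was not called at 0.16 ± 0.21 log2 units in the authors' deposited table, and was chosen after its value was seen. PXDNL, the paralog of PXDN, was lower (−3.18 ± 0.59) at a mean count of 7.66 in the authors' deposited table. Of the 5 measured haem peroxidase domain genes other than PXDN, PTGS2 (2.81 ± 0.45) and DUOX1 (1.83 ± 0.54) were called higher in the authors' deposited table. Only 1, PXDNL, was lower, and 2 did not pass, DUOX2 (−0.12 ± 0.85) among them. All 5 had mean counts below the median gene's in the authors' deposited table, between 1.65 and 47.0.

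Hypoxia-inducible genes, among which PLOD2 and LOX are commonly counted, had 9 of 20 called higher, 6 lower and 5 not called (median 0.20 log2 units in the authors' deposited table). Over all genes, 28.9% were called higher and 29.4% lower. The glucose transporter gene SLC2A1 was higher (3.33 ± 0.11), whereas BHLHE40 (−1.50 ± 0.10), BNIP3L (−1.20 ± 0.08) and KDM3A (−0.88 ± 0.07) were lower in the authors' deposited table. P4HA1 and P4HA2 belong to this list and to that of prolyl hydroxylation. Serpins other than SERPINH1, most of which inhibit proteases, had 2 of 14 called higher, 6 lower and 6 not called (median −0.01 log2 units in the authors' deposited table), beside the same shares over all genes. SERPINI1 (2.67 ± 0.30) was higher, and SERPINB6 (−0.63 ± 0.09) and SERPINB8 (−0.78 ± 0.11) were lower in the authors' deposited table. The annotated span of FN1 shares 7728 bases with that of ATIC, another gene of the table.

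**Figure D4:**
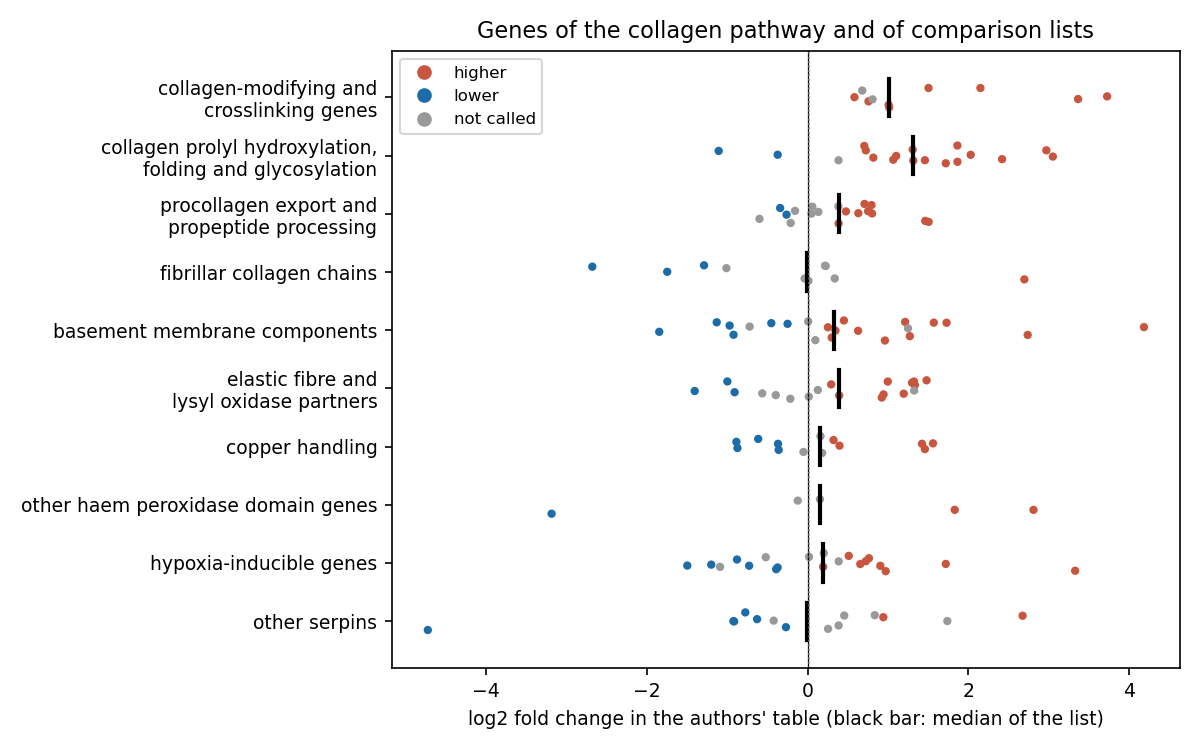
Log2 fold change in the authors' deposited table (x axis) for the 10 genes and the measured members of 9 lists (rows), with each point a gene coloured by its call at an adjusted p under 0.05, black bars for list medians and vertical scatter for legibility only. The medians of the 10 genes (1.01) and of the prolyl hydroxylation, folding and glycosylation list (1.31) lie right of those of the other 8 lists, which run from −0.01 to 0.39.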

How the data were processed

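The 6 samples were grouped by their titles, 3 shALDH18A1 and 3 shControl. Per the submitters' processing notes, fastp 0.23.2, STAR 2.7.10a and featureCounts were used with hg38; the sources used here do not give settings, annotation, strand use or the comparison's design, all of which can move a ratio. The authors deposited 1 comparison table of 15244 entries with 0 columns of single samples. Per the file headers it holds a mean normalized count (a signal), a fold change and its SE, taken as log2, a statistic (a score, equal to fold change over SE within 1.49e-13) and p-values, whose deposited adjustment is that of Benjamini-Hochberg within 7.42e-06. Depth per library is unknown, and the deposited SE is the measure of precision.

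Of entries sharing a symbol, the smallest p was kept (15243 genes). Calls are the deposited adjusted p under 0.05, and 95% intervals use the normal quantile times the SE. Calling and centring were tested on simulated data with few changed genes and noise drawn from the deposited SEs. That does not show how they behave where 58.4% of genes are called, as here. Named genes are the 10 members, ALDH18A1 and, from each of 9 lists, the 4 genes with the smallest p, some of which are not reported here. Members and lists were chosen with earlier results of these data known, and no list was tested as a set. The alternatives were stricter and looser thresholds, a fold minimum, other adjustments, centring and a filter on counts. The software was Python 3.11.15 with pandas 2.3.3, scipy 1.17.1, numpy 2.4.6 and, for figures, matplotlib 3.10.9.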

Additional observations from a re-analysis of the deposited data

How the results depend on the processing

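The count of 8 members called higher stayed at 8 with an adjusted p under 0.01, with Benjamini-Yekutieli or Bonferroni adjustment and with centring on the median of all genes. It was 9 at an adjusted p under 0.1, where LOXL3 passed, and 6 with a log2 fold change beyond 1 or among genes at or above the median count, which keeps 6 of the 10 genes. The count of members called lower was 0 in all 7. Every member kept its sign and its side of the threshold with Bonferroni adjustment and both centrings, although bin centring lowered the uncalled LOXL3 and LOXL4 to 0.37 and 0.49, and the 6 members above the median count did so under the count filter. Over all genes, those called higher numbered 2244 with a log2 fold change beyond 1, 2338 with Bonferroni adjustment and 2390 among genes at or above the median count, against 4411, and those called lower 1367 and 2366 under the first and second of these, against 4488. With a log2 fold change beyond 1, genes called either way were 2 of 18 for export and processing, 8 of 22 for basement membrane and 6 of 19 for elastic fibre. They were 3 of 13 for copper handling, 4 of 20 for hypoxia and 2 of 14 for other serpins. Under that rule 2244 of all 15243 genes were called higher and 1367 lower. At an adjusted p under 0.01, 2 of 10 fibrillar chains were called either way, and COL5A1 and COL11A2 no longer passed. Of all 15243 genes, 3763 were then called higher and 3789 lower. Centring on the median of the same abundance bin, an alternative for family differences chosen after seeing the data, took the gap of LOXL2 over LOXL3 to 3.10. The other 12 moved by less than their SE, the widened intervals of LOX over LOXL1 and LOXL2 over LOX changed sides of 0 as given above, and the uncalled gap of LOXL4 over LOXL1 became −0.23. No paired analysis was possible because the table has no columns of single samples, and for the same reason no replicate could be left out. Depth limits LOX, LOXL3 and LOXL4, whose SEs of 0.43, 0.34 and 0.71 are the largest of the 10 genes.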
